A study of Drosophila melanogaster with 10 samples.

Results

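The actin gene family of Drosophila was examined in the RNA of S2 cells, a cultured line derived from embryos. Its members were chosen by gene symbol: Act5C, Act42A, Act57B, Act79B, Act87E and Act88F. These are 6 of 15240 gene symbols, and they account for 12 of 30551 transcript rows in the expression table, with each transcript row kept. The series had 10 samples in 5 groups of 2 replicates. The analysis covers the 2 libraries of the S2 RNA group, and the other 8 samples (Ph-WT and Ph-ML ChIP and their inputs) were not analysed here. The S2 RNA cells carried neither Ph transgene and are listed as WT. Per the labels, copper sulphate was added at 0.5 mM for 3 days. The RNA was total RNA from which ribosomal RNA had been depleted. The cells are a single line, and both libraries belong to the same group, so levels and the spread between libraries are what these samples can show.

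Actin is the protein that polymerizes into the thin filaments of the cytoskeleton and of muscle. Flies have separate genes for the cytoplasmic actins, Act5C and Act42A, which are used in most cells for shape, movement and division, and for the muscle actins, which serve particular muscles. Act57B and Act87E are known from larval body wall and adult muscles, Act79B from leg and thoracic muscles of the adult, and Act88F from the indirect flight muscles. Actin monomers also sit in chromatin remodelling complexes of the nucleus, together with the actin-related protein Bap55. The encoded proteins are nearly alike, so a level is best compared between these genes with the number of reads behind it.

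Expression was given as RPKM, the reads of a transcript scaled to its length and to the size of the library. Values of this kind move in steps of whole reads, and the steps placed the size of replicate 1 at 37054213 reads and that of replicate 2 at 9495835 reads, so that replicate 1 was 3.90 times as deep. A transcript of 1 kb covered by 3 reads would have 0.0810 RPKM in the deeper library and 0.316 RPKM in the other. The level of a gene is the median over its transcript rows, errors are the SD over the 2 libraries, and intervals on reads are exact 95% intervals that cover counting error only. The methods of the study call the replicates biological, while the labels do not say whether they came from separate cultures, so their spread may be technical in part. Of 8 plasmatocyte (blood cell) markers with values, 7 had a mean of at least 1 RPKM, against 49.5% of all genes. The highest was the receptor gene Pvr, at 72.6 and 69.5 RPKM in replicates 1 and 2, while Hml was at 1.21 and 1.14 RPKM and Pxn, the lowest, at 0.529 and 0.267 RPKM. The crystal cell regulator lz was at 0.0412 and 0.0321 RPKM, and it was the only 1 of 4 listed crystal cell markers with values. PPO1, PPO2 and PPO3, and NimC1 of the plasmatocyte list, were not found under these symbols.

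Both cytoplasmic actins were abundant. Act5C, the main cytoplasmic actin, stood at 457 RPKM in replicate 1 and at 531 RPKM in replicate 2, which gives 494 ± 52.0 (SD, n = 2). It was number 55 of 13929 protein-coding genes by mean level. Act42A, the second cytoplasmic actin, had 121 and 92.6 RPKM, or 107 ± 19.8 (SD, n = 2), and was number 167. The values of these genes did not overlap. The mean level of Act5C was 4.63 times that of Act42A. The log2(RPKM + 1) difference of Act5C minus Act42A was 1.91 in replicate 1 and 2.51 in replicate 2, and averaged 2.21 ± 0.42 (SD, n = 2). Act5C was thus the higher gene in both libraries by more than their spread, while the size of the gap was less certain than its direction.

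The muscle actins were low, and they were far from equal. Act87E was the highest of them, at 7.31 and 9.0 RPKM in replicates 1 and 2, or 8.15 ± 1.20 (SD, n = 2). Its level exceeded that of 79.8% of protein-coding genes. Act79B had 1.02 and 1.67 RPKM, or 1.35 ± 0.454. Act57B had 1.11 and 0.999 RPKM, or 1.05 ± 0.0749. Both lay near the middle of all protein-coding genes, with 51.4% and 49.5% of those genes below them. Act88F, the flight muscle actin, had 0.169 and 0.0660 RPKM, or 0.118 ± 0.0730, from 10 reads in replicate 1 and 1 read in replicate 2. With 3 reads its transcript would have 0.0508 RPKM in replicate 1 but 0.198 RPKM in replicate 2, and the replicate 2 value lay under that limit. In bulk RNA a few cells with much of a transcript and many cells with little of it cannot be told apart.

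**Figure D1:**
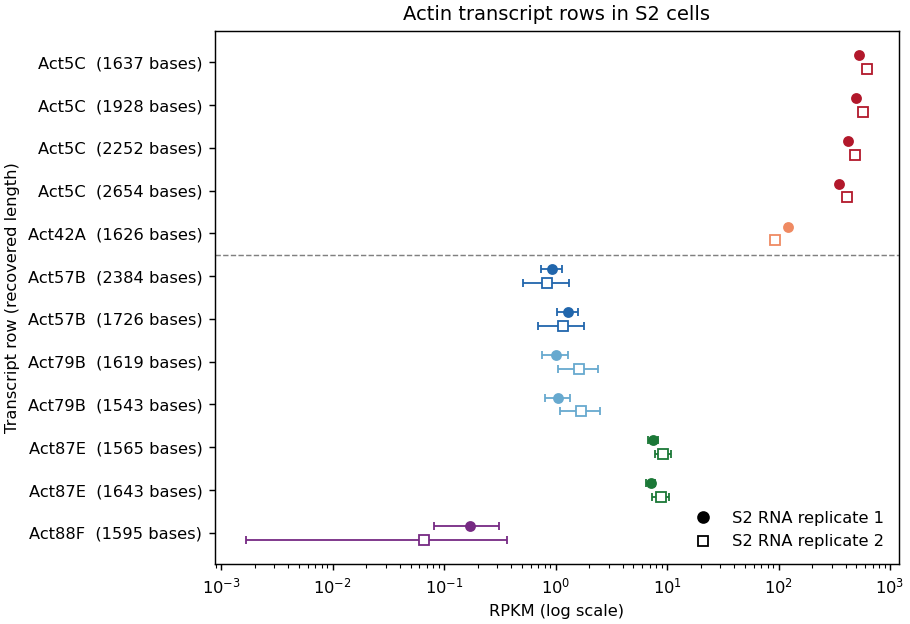
RPKM (log scale) of the 12 actin transcript rows in S2 RNA replicate 1 (filled circles) and replicate 2 (open squares), with exact 95% Poisson intervals of the reads; the dashed line parts the cytoplasmic actins (top) from the muscle actins. The 5 cytoplasmic rows lie between 92.6 and 616 RPKM and the 7 muscle rows between 0.0660 and 9.22 RPKM.

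Both cytoplasmic actins and 1 of the 4 muscle actins, Act87E, averaged 5 RPKM or more, against 29.5% of all genes and 30.4% of protein-coding genes. A mean of 1 RPKM or more was reached by 2 of 2 cytoplasmic and 3 of 4 muscle actins. That mean was reached by 49.5% of all genes and 50.9% of protein-coding genes. With both libraries required to reach 1 RPKM, 2 of 2 cytoplasmic and 2 of 4 muscle actins were included, against 7314 of 15240 genes. Act57B fell out, at 0.999 RPKM in replicate 2. In order of mean level the genes ran Act5C, Act42A, Act87E, Act79B, Act57B and Act88F. Neighbours in this order were called apart where their libraries did not overlap and their means differed by more than both SDs added together. By this measure 4 of the 5 neighbouring pairs were apart. Act42A was 13.1 times as high as Act87E and Act87E was 6.06 times as high as Act79B, by their means. Act42A stood at 16.5 times Act87E in replicate 1 and at 10.3 times in replicate 2. Act57B stood above Act88F by 6.53 times in replicate 1, and in replicate 2 Act88F rested on 1 read, so the size of that gap is uncertain. Act79B and Act57B could not be ordered. Their means differed by 0.293 RPKM with an SD sum of 0.528 RPKM, and Act57B was the higher gene in replicate 1 and Act79B in replicate 2.

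The comparison of cytoplasmic with muscle actins was made within each library on the scale of log2(RPKM + 1), where a pseudocount of 1 is added and the difference of low genes is therefore understated. The cytoplasmic actins averaged 7.88 in replicate 1 and 7.80 in replicate 2, and the muscle actins averaged 1.34 and 1.46. The difference was 6.54 and 6.34, with an average of 6.44 ± 0.14 (SD, n = 2), so the gap was far wider than the spread between libraries. With 2 libraries an exact two-sided sign-flip test cannot give a p below 0.5, and none is reported. With a pseudocount of 0.1 the difference was 7.46. In linear terms the cytoplasmic actins summed to 578 and 623 RPKM and the muscle actins to 9.61 and 11.7 RPKM, a ratio of 60.1 in replicate 1 and 53.1 in replicate 2.

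Seen as shares of the family, Act5C held 77.8% of the summed actin RPKM in replicate 1 and 83.6% in replicate 2. Act42A held 20.5% and 14.6%. All muscle actins together held 1.64% and 1.85%. Within the muscle actins Act87E held 76.1% and 76.7% of the muscle sum. Act57B held 11.5% and 8.52% of it, Act79B 10.7% and 14.2%, and Act88F 1.76% and 0.563%. Act87E thus held most of the summed muscle actin RPKM in both libraries. Whether a part of these values came from Act5C reads was not tested.

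The transcript rows of a gene could differ in level. Act5C, which has alternative leader exons, had 4 rows. NM_167053, with a recovered length of 1637 bases, had 522 and 616 RPKM in replicates 1 and 2. NM_001014725, of 1928 bases, had 492 and 571 RPKM. NM_001014726, of 2252 bases, had 422 and 490 RPKM. The longest row, NM_078497 of 2654 bases, had 350 and 409 RPKM. The level fell with each step in length, and the highest row was 1.49 times the lowest in replicate 1 and 1.51 times in replicate 2. The reads behind these rows varied less. In order of length they were 31676, 35131, 35244 and 34429 in replicate 1, and 9580, 10454, 10483 and 10301 in replicate 2. The reads thus spanned no more than a 1.11-fold range in replicate 1 and a 1.09-fold range in replicate 2, while the lengths spanned a 1.62-fold range. The Act5C rows thus rested on similar numbers of reads, and their RPKM differed mainly through the length by which the reads were divided.

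The muscle actins with several rows had rows that differed by length alone. The rows of Act57B, NM_001169748 of 2384 bases and NM_079076 of 1726 bases, each rested on 82 reads in replicate 1 and 19 in replicate 2. The longer row had 0.928 and 0.839 RPKM and the shorter 1.28 and 1.16 RPKM, a 1.38-fold difference that equals the ratio of the lengths. Both rows of Act79B, NM_001275271 of 1619 bases and NM_079486 of 1543 bases, rested on 60 and 25 reads, and both rows of Act87E, NM_057743 of 1565 bases and NM_169525 of 1643 bases, on 434 and 137 reads. In each of these genes the rows held identical read counts, so a preference for an isoform cannot be read from them. Act42A (NM_078901, 1626 bases) and Act88F (NM_079643, 1595 bases) had 1 row each. Identical recovered reads over rows of unequal length were not the rule in the table as a whole. They were found in 593 of 4925 genes whose rows all had recovered reads and differed in length, or 12%. This share may be too low, since recovered reads are minimum values where reads and length share a factor.

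**Figure D2:**
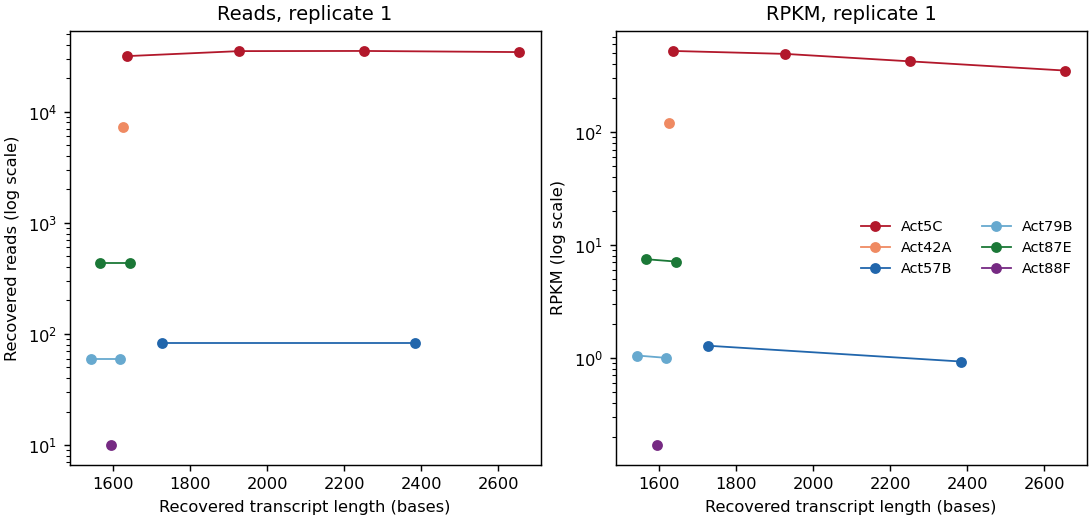
Recovered reads (left) and RPKM (right) of each actin transcript row in replicate 1, on log scales, against the recovered transcript length in bases; lines join rows of the same gene. Reads stay level along each line (82 for both Act57B rows), while RPKM falls as length grows.

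Since each gene had a row of similar length, the reads themselves could be compared with little influence of length. The row closest to that of Act42A was taken for every gene, a choice made after the data were seen, and these rows were 1595 to 1726 bases long. In replicate 1 Act5C had 31676 reads, Act42A 7267, Act87E 434, Act57B 82, Act79B 60 and Act88F 10. In replicate 2 the same rows had 9580, 1429, 137, 19, 25 and 1 reads. The order of the 3 highest genes was the same in both libraries. Per unit of length Act5C stood at 4.33 times Act42A in replicate 1 (exact 95% interval 4.22 to 4.44) and at 6.66 times in replicate 2 (6.30 to 7.04). These intervals did not overlap, so the balance of the cytoplasmic actins differed between the libraries by more than counting error. Act42A stood at 16.9 times Act87E in replicate 1 (15.4 to 18.7) and at 10.5 times in replicate 2 (8.84 to 12.7). Act87E stood at 7.13 times Act79B (5.43 to 9.50) and 5.40 times (3.51 to 8.64), with intervals that overlapped.

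The actin genes share long stretches of coding sequence, and how reads that align to several genes were treated is not stated. The row with the most reads of each gene was set against that of Act5C. For every 1000 reads of Act5C there were 206 reads of Act42A in replicate 1 and 136 in replicate 2. Act87E had 12.3 and 13.1, Act57B 2.33 and 1.81, Act79B 1.70 and 2.38, and Act88F 0.284 and 0.0954. The reads of Act87E stood in a similar proportion to those of Act5C in both libraries, and those of Act42A did not. No interval was computed for these proportions, which for Act87E rest on 434 and 137 reads. A part of Act5C reads in the low values of the muscle actins was not tested, and these values are uncertain for that reason.

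The actins were next compared between the libraries by exact two-sided binomial testing of their reads, with Benjamini-Hochberg adjustment over the 11075 genes tested. This compares the libraries and not a condition. Of the 6 actins, 2 had an adjusted p under 0.05, against 12.2% of all genes tested and 40.6% of the 1965 genes with at least 1000 reads in replicate 1, and the 2 were the cytoplasmic actins. They moved in opposite directions. Act5C was lower in replicate 1, by a log2 difference of -0.21 (replicate 1 minus replicate 2, adjusted p = 6.45e-38, exact binomial). This direction was called for 7.73% of all genes tested and for 27.7% of those with at least 1000 reads. Act42A was higher in replicate 1, by 0.38 (adjusted p = 3.20e-19, exact binomial), a direction called for 4.51% of all genes tested and for 12.9% of those with at least 1000 reads. With the libraries scaled to the same median the differences were -0.19 and 0.41. That shift was too small to reverse either direction, so it is no check on them.

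None of the muscle actins passed this test. Act79B had 25 reads in replicate 2, where its level in replicate 1 would have given 15.4, a log2 difference of -0.70 (adjusted p = 0.214, exact binomial). Act87E had 137 reads against 111 given by its level in replicate 1, a difference of -0.30 (adjusted p = 0.191, exact binomial). For Act57B the difference was 0.15 (adjusted p = 0.987, exact binomial) and for Act88F 1.36 (adjusted p = 0.930, exact binomial). Before adjustment p was 0.0376 for Act87E and 0.0436 for Act79B (exact binomial), and 2385 of the 11075 genes tested had an unadjusted p under 0.05. With 1 to 137 reads in the smaller library, the adjusted p-values do not show that these genes were equal in both libraries.

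Genes of similar level give the background for the cytoplasmic pair. Of the 92 protein-coding genes within 2-fold of the mean level of Act5C, Act5C included, 90 were higher in replicate 2, with a median log2(RPKM + 1) difference (replicate 1 minus replicate 2) of -0.49, so most had a wider gap than Act5C. Only 10 of the 92, Act5C among them, had a difference as high as the -0.21 of Act5C. Of the 213 protein-coding genes within 2-fold of Act42A, 67 had the higher value in replicate 1 and 146 in replicate 2, with a median of -0.11. Only 3 of the 213, Act42A among them, had a difference as high as the 0.38 of Act42A. Over the 4493 genes of the table that averaged 5 RPKM or more the median was -0.05 with an SD of 0.26.

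**Figure D3:**
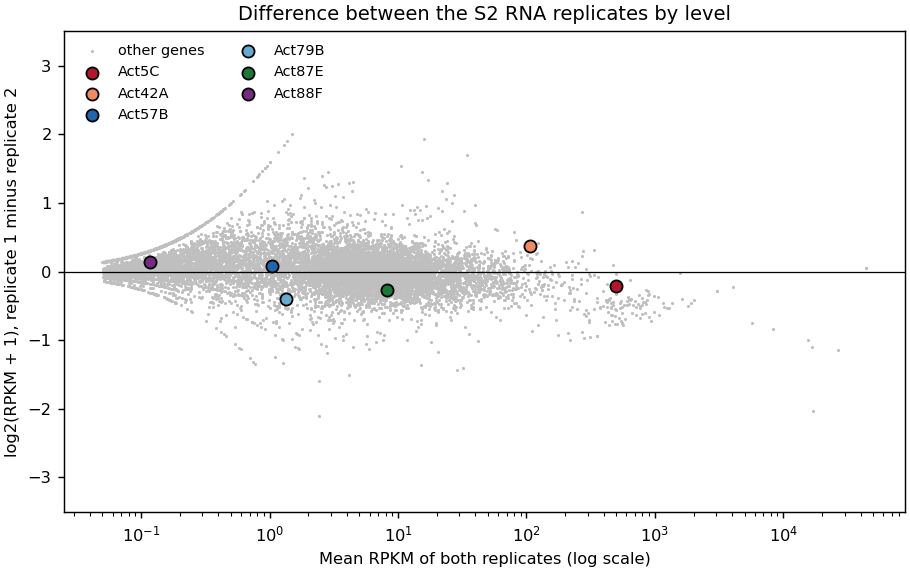
Difference in log2(RPKM + 1) between the replicates (replicate 1 minus replicate 2) against mean RPKM (log scale) for genes above 0.05 RPKM (grey) and the 6 actins (coloured). Act42A lies above the line at 0.38, over most genes of its level, and Act5C lies below it at -0.21.

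The proteins that act on actin were examined as lists, whose background is that 49.5% of all genes reached 1 RPKM and 29.5% reached 5 RPKM. The Arp2/3 complex, which starts branched filaments, had 8 of 8 genes at a mean of at least 1 RPKM and 7 of 8 at 5 RPKM, with a median of 24.7 RPKM against 0.919 RPKM over all genes. Arp3 had 39.3 and 38.0 RPKM, Arpc1 34.9 and 34.3, Arpc4 32.6 and 34.3, and Arpc2 32.03 and 33.6 RPKM in replicates 1 and 2. The remaining subunits were lower. Arpc5 had 15.1 and 18.2 RPKM, Arp2 15.7 and 12.9, and the alternative subunits Arpc3A and Arpc3B 14.1 and 18.4 against 4.91 and 3.80 RPKM. Every subunit of the complex lay below Act42A in level.

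Of the other actin-related proteins, which share the actin fold, Arp1 of the dynactin complex had 22.5 and 20.7 RPKM and Bap55 of the chromatin remodelling complexes had 15.9 and 16.4 RPKM. Arp5 and Arp8, known from the INO80 remodelling complex, had 3.47 and 3.02 RPKM and 2.82 and 3.22 RPKM. Arp53D, known from the testis, was at 0.0410 and 0.0800 RPKM. With Arp2 and Arp3 the list of actin-related proteins held 9 genes, of which Arp53D was the only one under 1 RPKM. These 9 genes, Arp2 and Arp3 included, had a median of 8.45 RPKM, close to the 8.15 RPKM of Act87E.

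Activators of nucleation and formins were lower as a list, with 11 of 13 genes at 1 RPKM, 7 of 13 at 5 RPKM and a median of 5.33 RPKM. The highest were Sra-1, at 23.8 and 22.3 RPKM, SCAR, at 15.4 and 15.8 RPKM, and HSPC300, at 14.3 and 13.3 RPKM, all of which are parts of the complex that activates Arp2/3. The lowest were the formins form3, at 0.240 and 0.102 RPKM, and DAAM, at 0.271 and 0.176 RPKM, followed by the nucleator spir at 2.06 and 2.4 RPKM.

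Genes for proteins that bind monomers or turn filaments over reached 1 RPKM in 14 of 14 cases and 5 RPKM in 13 of 14, with a median of 23.0 RPKM. The cofilin gene tsr, whose product severs filaments, had 264 and 241 RPKM and was the only gene of this list above Act42A. The profilin gene chic, whose product loads monomers onto growing ends, had 97.8 and 106 RPKM, so its values overlapped those of Act42A. The gene flr, a partner of cofilin, had 33.2 and 35.9 RPKM. The lowest were twf, at 11.3 and 11.9 RPKM, pod1, at 7.63 and 5.99 RPKM, and the cofilin phosphatase gene ssh, at 4.18 and 4.14 RPKM. In the test between libraries 3 of the 14 genes had more reads than expected by depth in replicate 1 and 0 had more in replicate 2. These 3 were among the 11 genes of the list with at least 1000 reads in replicate 1, a class in which 12.9% and 27.7% of genes were called in these directions. They were Gel, pod1 and tsr, the last with a log2 difference of 0.13 (adjusted p = 0.00842, exact binomial).

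Filament cross-linkers and non-muscle myosin II gave a similar picture, with 9 of 10 genes at both thresholds and a median of 24.5 RPKM. The myosin light chain genes sqh and Mlc-c had 71.6 and 67.8 RPKM and 46.5 and 51.4 RPKM, and alpha-Spec had 40.5 and 44.6 RPKM. The bundling gene sn (fascin) was the lowest, at 0.567 and 0.795 RPKM. Actn (alpha-actinin) was at 6.63 and 7.45 RPKM, and Fim (fimbrin) at 16.7 and 16.6 RPKM. Of these 10 genes, 3 were called higher in replicate 1 and 1 in replicate 2. All of the called genes were among the 8 of the list with at least 1000 reads in replicate 1. In that class 12.9% and 27.7% of genes were called in these directions. The chaperonin CCT, which folds newly made actin and tubulin, had all 8 of its genes above 5 RPKM, from Cct5 at 25.1 and 30.7 RPKM to T-cp1 at 91.2 and 88.6 RPKM, with a median of 50.6 RPKM. In the test between libraries, 0 of its genes passed as higher in replicate 1 and 5 of 8 as higher in replicate 2. All 8 had at least 1000 reads in replicate 1, and among such genes 12.9% and 27.7% were called in these directions. Of the 8 common reference genes, 7 of which were this deep, 0 were called higher in replicate 1 and 4 in replicate 2. The 5 CCT genes were Cctgamma, CG8258, Tcp-1eta, CG5525 and Cct5, with log2(RPKM + 1) differences of -0.33 to -0.24. The serum response factor gene bs and its actin-sensing cofactor gene Mrtf were low, at 0.801 and 0.895 RPKM and at 0.994 and 1.12 RPKM.

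**Figure D4:**
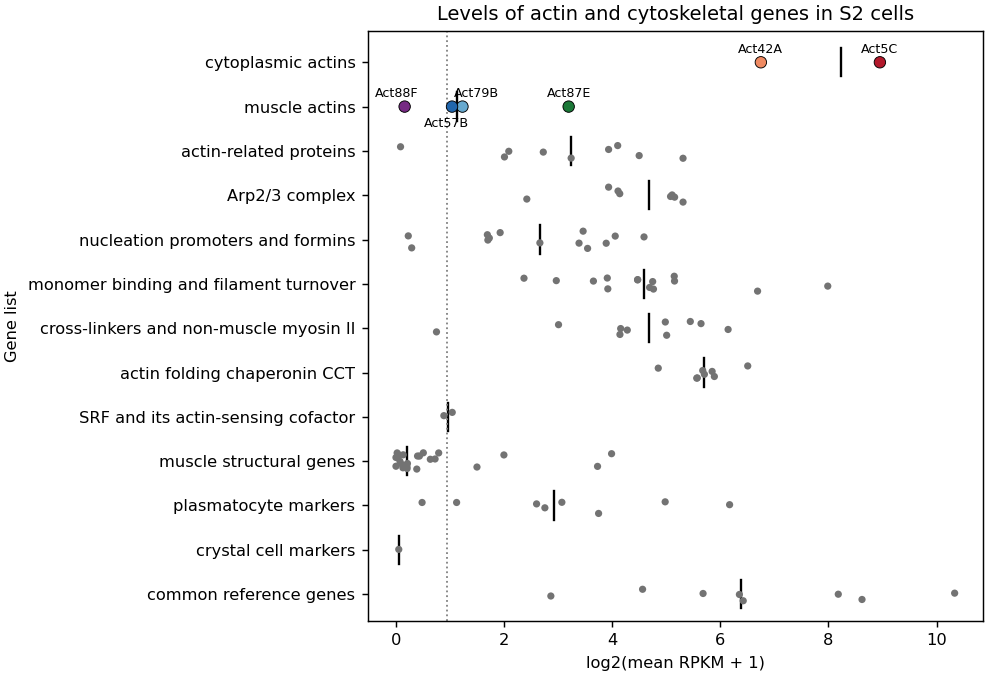
Mean level, as log2(mean RPKM + 1), of the actins (coloured) and of genes in each list (grey, scattered vertically for legibility only); black bars mark list medians and the dotted line the median of all genes. Act5C and Act42A lie to the right of nearly all cytoskeletal genes, and Act57B and Act79B lie near the median of all genes.

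The muscle actins were then set beside a list of other muscle genes. These were structural genes and the transcription factor gene Mef2, which had 1.90 and 1.75 RPKM. Of 23 genes of the list with values, 4 reached 1 RPKM, Mef2 among them, and 2 reached 5 RPKM. Both counts were below the share of all genes, and the median of the 23 genes was 0.158 RPKM. In each library they summed to 35.2 and 37.3 RPKM. The highest was Tm1, a tropomyosin gene whose products also serve other cells, at 13.8 and 15.9 RPKM. This is the median over its 17 rows, whose highest values were 36.1 and 38.8 RPKM. Next came the troponin C gene TpnC4 at 11.2 and 13.3 RPKM, and Zasp52 at 3.36 and 2.62 RPKM. The lowest of the list were listed at or near 0, and 19 of the 23 lay under 1 RPKM. Mhc, the muscle myosin heavy chain, had 0.109 and 0.0632 RPKM, and Mlc1 was at 0.0306 RPKM in replicate 1, with replicate 2 listing it at 0. The median over the rows of up (troponin T) and of Tm2 was listed at 0 in both libraries, and no row of either gene passed 0.0739 RPKM. Act87E was higher than 21 of the 23 genes, while Act88F lay under the median of the list. Muscle cells in the culture were not tested beyond these values.

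Finally, genes nearest to the actins in level were sought by Euclidean distance over log2(RPKM + 1) in the 2 libraries. The nearest to Act5C were the ribosomal protein gene RpS20 (distance 0.088), the ferritin gene Fer1HCH (0.129) and the chaperone gene Hsc70-4 (0.144). The nearest to Act42A were AnnIX (annexin, 0.130), CG3940 (0.143) and the mitochondrial channel gene porin (0.168). Act87E was nearest to CG5068, CG8306 and CG4407, with distances of 0.011 to 0.020. Act57B was nearest to CG7387, CG14183 and CG32043 (0.016 to 0.026), and Act79B to qjt, CG42233 and CG32816 (0.014 to 0.020). With only 2 libraries, likeness of level is what this measure gives.

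Act5C is often used as a reference for expression, and it was placed among 8 genes used in that way. Only Ef1alpha48D, a translation elongation factor gene, lay above it, at 1054 and 1525 RPKM. RpL32 had 324 and 461 RPKM and alphaTub84B had 293 and 286 RPKM. Gapdh2 had 80.7 and 88.9 RPKM and Gapdh1 had 49.3 and 51.2 RPKM. Cyp1 had 85.0 and 76.4 RPKM and SdhA 21.1 and 24.1 RPKM. The lowest was Tbp, the TATA-binding protein gene, at 6.60 and 5.97 RPKM, below Act87E in replicate 1 and replicate 2 alike. The log2 difference between the libraries (replicate 1 minus replicate 2) was -0.53 for Ef1alpha48D, -0.51 for RpL32, -0.21 for Act5C, 0.04 for alphaTub84B and 0.38 for Act42A, so these abundant genes did not share the same shift.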

How the data were processed

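S2 RNA replicates 1 and 2 were analysed. Per the methods of the study, TopHat placed the reads on fly genome release 5 (dm3 in the submitters' processing notes, which name TopHat2 2.4). The authors deposited RPKM per RefSeq transcript with replicates apart. The program that made these values, and its treatment of shared reads, are not given in the sources used here.

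Library sizes, transcript lengths and reads were recovered from the whole-read steps of the RPKM values. Lengths from 100 to 30000 bases were searched, and whole reads (relative tolerance 2e-07) were found for 99.9% of 23661 rows above 0 in both libraries. At the recovered size 68.5% of lengths in 10534 entries were whole, against 34.1% at double that size. Reads and lengths are minimum values where they share a factor. The procedure was tested on simulated data, but the outcome is not given here, so the error of the recovered reads is not stated.

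Genes are medians over rows. The binomial test used the row with the most reads of each gene with reads in both libraries. Of 12 actin identifiers, 11 matched a name table of Release 6 plus ISO1 MT, from which no coordinates were taken. Named genes were all actins, the 3 highest and lowest of each list (all genes of lists up to 8) and the 3 nearest in level, with further genes chosen after their values were seen. Lists held 115 symbols, 108 with values; the other 7 were not analysed here. Members and lists were chosen with earlier results of these data known. Alternatives were the pseudocount, the row taken for a gene, median scaling, thresholds in both libraries, protein-coding genes, and each library left out. A planned protein comparison was not run. Python 3.11.15, NumPy 2.4.6, SciPy 1.17.1, pandas 2.3.3 and matplotlib 3.10.9 were used.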

Additional observations from a re-analysis of the deposited data

How the results depend on the processing

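No paired analysis was possible because values of a single group were analysed, so the planned comparison of Ph-ML with Ph-WT ChIP, with or without the replicate block, was not run. With both libraries kept, 91 values were recomputed. Of these, 84 stayed within the spread between libraries, within 1.5 times a count or on the same side of the test. Some of them could not move, so this count is no measure of stability. Act42A and Act88F have 1 row each, so the row taken changed nothing. For the actins with 2 rows the mean over rows equals the median. Restriction to protein-coding genes left the log2 differences of the actins as they were. The difference of cytoplasmic minus muscle actins was 7.46 with a pseudocount of 0.1, which weighs low genes more. Act5C averaged 569 RPKM by the row with the highest RPKM, which is also the row closest in length to Act42A, and Act57B averaged 1.22 RPKM by the same choices and 0.884 RPKM by the row with the most reads. The last 2 row choices were added after the data were seen. Of the genes bs and Mrtf, 0 reached 1 RPKM in both libraries, in place of 1 by the mean. Of the 4 muscle actins, 2 reached it in both libraries, in place of 3 by the mean.

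With 2 libraries, leaving 1 out always moves a mean by less than the SD and is no sign of stability. It gave 6.34 to 6.54 for cytoplasmic minus muscle actins and 1.91 to 2.51 for Act5C minus Act42A. Act88F ran from 0.0660 to 0.169 RPKM and Act79B from 1.02 to 1.67 RPKM. At 1 RPKM it gave 0 to 1 of the genes bs and Mrtf, and 2 to 3 of the 4 muscle actins. The muscle actins under 2 RPKM rest on at most 82 reads a row, which limits their order.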
